A study of Mus musculus with 16 samples.

Results

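The class I odorant receptor genes of mouse chromosome 7 form a single large cluster, and 113 of them were followed here across sorted cells of the olfactory mucosa. They are the genes numbered Olfr543 to Olfr693 on that chromosome, pseudogenes left out, each measured by 1 array probe set, out of 19505 genes in all. The 967 other numbered Olfr genes served for comparison, 117 of them on chromosome 7. The choice used only names and chromosome, no measured level, and all 113 matched a RefSeq record on chromosome 7. The files hold no class label, so the name class I rests on the numbering and place of the genes. In RefSeq gene order Olfr693 stands apart from the others, with 21 non-receptor genes between it and Olfr692.

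Odorant receptors are G protein-coupled receptors of olfactory sensory neurons, and each mature neuron transcribes in general 1 allele of 1 receptor gene. A receptor transcript therefore stands for the neurons that chose that gene. Class I receptors are related to the odorant receptors of fish, are mostly expressed in the dorsal part of the mouse olfactory epithelium, and include many receptors for carboxylic acids. A long-range enhancer within the cluster, known as the J element, acts on many of its genes in mice. A few members have a known ligand or a second site of expression, but most have none that is established.

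All mice carried the S100a5-tauGFP reporter on a C57BL/6 background. S100a5 encodes a calcium-binding protein whose transcript is known to rise with activity in olfactory sensory neurons. Per the labels, 24 mice aged 7 to 12 weeks and of both sexes spent 40 h singly in clean air, and from 26 h on were given 10 s pulses every 20 min. The odor group was given isoamyl acetate together with whiskey lactone, and the vehicle group filtered air. Cells were sorted by fluorescence from pools of 3 mice, 4 pools per treatment, and each pool gave a library of each sorted fraction, so that 16 arrays fall into 4 groups of 4: odor titled GFP+, odor titled GFP-, vehicle titled GFP+ and vehicle titled GFP-. A pool of mice, and not a single mouse, is thus the replicate, and the receptor levels describe a mixture of neurons from 3 mice.

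The names of the fractions carry a conflict. For each of the 16 samples the tag for cell type contradicts the title, and groups here follow the titles. S100a5 was lower in libraries titled GFP+ than in those titled GFP-, by -1.16 in odor mice (limma adjusted p = 0.0625 on 16 arrays and 0.000588 on 14) and by -1.37 in vehicle mice on 14 arrays. If the tags were right, every fraction difference would change its sign, and the comparisons of odor with vehicle in the named fractions would change places. Vehicle pool 3 ran opposite to the other pools in S100a5 and in most receptors, whichever label is used. The counts of receptors that passed are therefore given on all 16 arrays as labelled and on the 14 arrays without that pool's libraries, and other results name the set used. Omp, the gene that defines mature sensory neurons, lay between 18.44 and 18.68 in every library of both fractions. Values are on the deposited log2 scale throughout, a difference of 1 standing for a doubling only if that scale was not stretched, which the files do not settle.

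Promoter sequence was available from RefSeq (GRCm38.p6) for 97 of the 113 genes. For 73 of these the gene model starts at the start codon, and for 24 it starts at an annotated transcription start, so only those 24 windows are promoters in the usual sense. Shown are the 250 bases upstream of 4 of the latter, which carry the main contrasts below. They are Olfr629 (chr7:103741323-103741572 on the minus strand), which was high in libraries titled GFP+, Olfr613 (chr7:103550118-103550367 on the plus strand), which was high in libraries titled GFP-, and the near neighbours Olfr556 (chr7:102669651-102669900 on the plus strand) and Olfr558 (chr7:102702073-102702322 on the plus strand), whose differences were unlike. Capitals mark TAATNA, the core of homeodomain sites such as those of Lhx2 and Emx2, and TATAAA, each on either strand.
Olfr629: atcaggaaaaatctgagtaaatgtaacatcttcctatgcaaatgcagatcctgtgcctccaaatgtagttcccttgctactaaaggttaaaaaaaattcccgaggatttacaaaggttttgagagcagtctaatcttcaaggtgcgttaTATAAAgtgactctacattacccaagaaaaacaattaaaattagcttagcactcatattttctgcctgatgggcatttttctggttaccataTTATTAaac
Olfr613: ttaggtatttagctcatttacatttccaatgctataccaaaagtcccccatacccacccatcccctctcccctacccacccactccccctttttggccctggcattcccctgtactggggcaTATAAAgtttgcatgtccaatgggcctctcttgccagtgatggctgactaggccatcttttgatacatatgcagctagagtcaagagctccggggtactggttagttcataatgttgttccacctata
Olfr556: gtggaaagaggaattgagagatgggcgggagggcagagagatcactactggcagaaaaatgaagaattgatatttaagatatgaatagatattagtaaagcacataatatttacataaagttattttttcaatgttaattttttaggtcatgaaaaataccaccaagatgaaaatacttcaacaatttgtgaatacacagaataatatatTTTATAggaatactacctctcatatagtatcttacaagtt
Olfr558: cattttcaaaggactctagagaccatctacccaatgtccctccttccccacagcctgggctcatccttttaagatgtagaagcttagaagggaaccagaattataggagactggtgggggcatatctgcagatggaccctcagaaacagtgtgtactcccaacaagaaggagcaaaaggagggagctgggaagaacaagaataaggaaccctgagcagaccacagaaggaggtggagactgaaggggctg
Olfr629 held both motifs, Olfr613 and Olfr556 held TATAAA alone, and Olfr558 held neither. Over all windows of the cluster, TAATNA stood in 60 of 97 (61.9%), against 64.2% of other Olfr windows and 24.8% of all gene windows. TATAAA stood in 38.1%, against 39.6% and 13% of the same sets. CCCNNGGG, a core of the sites bound by Ebf proteins, was found in 3.09% of the cluster's windows, 2.73% of other Olfr windows and 11.7% of all. These are matches of letters on both strands, not sites of binding, and a match to TAATNA may overlap one to TATAAA. The cluster's shares pool both kinds of window, and the sets compared were not matched for kind of window or base composition.

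The levels of the 113 genes were spread widely but stayed below the array's highest signals, with means over all genes running from 2.27 to 19.38. The mean over 16 arrays ran from 3.10 to 12.75, with a median of 8.20 (quartiles 6.75 and 9.77), against a median of 8.78 over other Olfr genes and 6.90 over all genes. The array's 5222 negative probe sets lay around 5.46 (median) and reached 9.56 at their 95th percentile, which leaves no clean background. Of the 113, 93 lay above that median and 31 above the 95th percentile. Levels of different probe sets depend on the probes, and the order below ranks signals and not amounts of RNA.

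Olfr552 had the highest signal, with 13.04, 13.40, 13.12 and 13.21 in odor titled GFP+, 11.46, 11.64, 12.90 and 11.47 in odor titled GFP-, 13.46, 13.30, 13.38 and 13.94 in vehicle titled GFP+ and 12.31, 12.03, 13.13 and 12.18 in vehicle titled GFP-. Olfr549, a close neighbour in gene order, followed with a mean of 12.68, then Olfr592 with 12.22 and Olfr596 with 12.12. These 4 differ by less than the SD of Olfr592 and Olfr596 over the 16 arrays, 1.02 and 1.31, and their order is not settled. At the other end, Olfr564 averaged 3.10, Olfr568 3.15, Olfr574 3.26 and Olfr543 3.53, all below the median of the negative probe sets. Within a group the members were repeatable, with a median SD of 0.36 in odor titled GFP+, 0.45 in odor titled GFP-, 0.47 in vehicle titled GFP+ and 0.40 in vehicle titled GFP- without pool 3. With pool 3 the vehicle medians were 0.74 and 0.63.

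Between the fractions of odor-exposed mice, members of the cluster moved in both directions. On 14 arrays 57 of 113 members passed the test, 26 higher and 31 lower in libraries titled GFP+ (limma, adjusted p under 0.05). Across all genes tested 13.2% passed, 8.59% higher and 4.59% lower. On 16 arrays 30 members passed, 20 higher and 10 lower, and all of them were among the 57, with 6.97% of all genes passing (4.57% higher, 2.39% lower). Of other Olfr genes 595 of 967 (61.5%) passed on 14 arrays and 375 (38.8%) on 16. The median difference over the cluster was -0.10, against -0.23 over other Olfr genes and -0.08 over all genes. In size, 55 members (48.7%) differed by over 1, against 61% of other Olfr genes and 8.88% of all genes.

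The count rests on the fit. With the pool as a block, which pairs the 2 fractions of the same mice, 56 members passed on 14 arrays (25 higher, 31 lower, with 8.77% and 4.79% of all genes) but 0 on 16 arrays (with 0% of all genes higher and 0.0103% lower), where 59 had an unadjusted p under 0.05 and the lowest limma adjusted p was 0.161. Centring each array on its median shifted the median of all genes by -0.35, and the split on 14 arrays became 22 higher and 49 lower (31% higher, against 45.6% as deposited), on 16 arrays 19 and 35 (35.2%, against 66.7%). Without regard to any fit, 25 members had every odor library titled GFP+ above every one titled GFP-, and 32 the reverse, with 8.9% and 7.6% of all genes doing so.

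**Figure D1:**
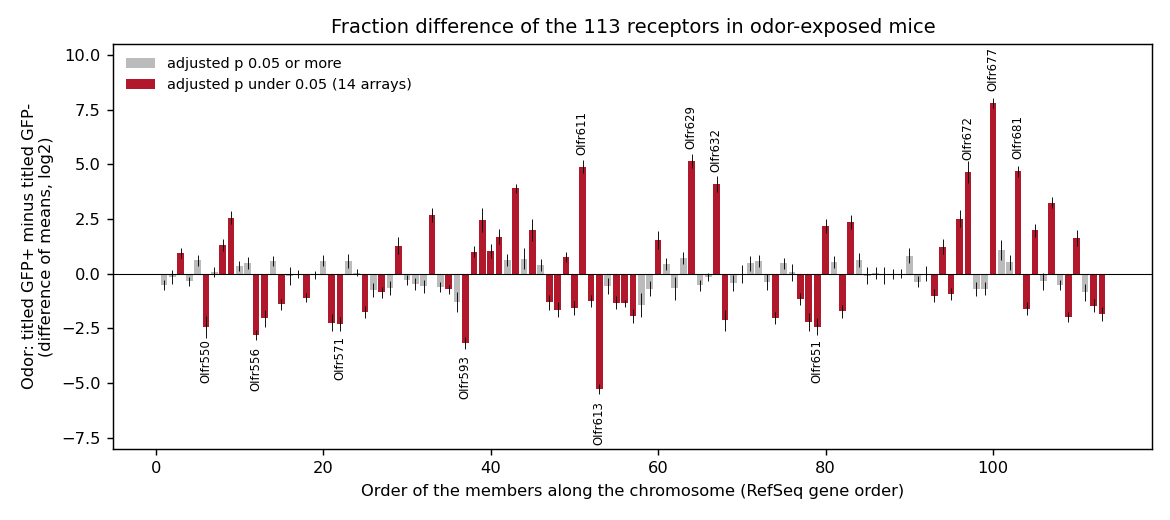
Difference between the libraries titled GFP+ and titled GFP- of odor-exposed mice (log2, 4 libraries each) for the 113 receptors in RefSeq gene order; bars show the difference of means, lines its limma standard error on 14 arrays, and red bars pass the adjusted threshold. The 26 higher and 31 lower receptors are mixed along the cluster in 26 runs of 1 to 8, with differences from -5.26 for Olfr613 to 7.80 for Olfr677.

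Among the receptors that were higher in libraries titled GFP+, Olfr677 had the largest difference. Olfr677 lay at 12.04, 12.64, 12.17 and 11.75 in the 4 libraries titled GFP+ of odor-exposed mice, against 4.45, 5.04, 3.97 and 3.93 in those titled GFP-. The groups did not overlap, and the measured difference was 7.80 ± 0.25 (limma adjusted p = 2.83e-11 on 14 arrays and 0.0306 on 16). All 4 libraries titled GFP- lay below the median of the negative probe sets, 5.46, so the size and its rank as the largest rest on a level not above background. In vehicle mice it lay at 12.02, 12.74, 4.27 and 12.49 in the libraries titled GFP+ and at 4.48, 4.63, 13.21 and 4.79 in those titled GFP-. Pool 3 alone had the 2 fractions the other way round. Olfr629 lay at 9.63, 9.37, 9.09 and 8.75 in the 4 libraries titled GFP+ of odor-exposed mice, against 4.17, 4.61, 3.65 and 3.79 in those titled GFP-. The groups did not overlap, and the difference was 5.16 ± 0.33 (limma adjusted p = 2.63e-08 on 14 arrays and 0.0296 on 16), with all 4 libraries titled GFP- again below that median. Olfr611 lay at 11.07, 10.90, 10.95 and 10.44 in the 4 libraries titled GFP+ of odor-exposed mice, against 5.92, 6.62, 5.67 and 5.57 in those titled GFP-. It was thus higher by 4.89 ± 0.31 in libraries titled GFP+ (limma adjusted p = 2.62e-08 on 14 arrays).

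Olfr681 and Olfr672 had a high signal in libraries titled GFP+ and a middling one in those titled GFP-. Olfr681 lay at 12.82, 13.16, 13.41 and 13.07 in the 4 libraries titled GFP+ of odor-exposed mice, against 8.41, 9.12, 8.53 and 7.66 in those titled GFP-. Olfr672 lay at 13.85, 14.35, 13.76 and 13.72 in the 4 libraries titled GFP+ of odor-exposed mice, against 9.33, 10.41, 9.52 and 7.74 in those titled GFP-. Every library titled GFP+ lay above every one titled GFP- for both receptors. The differences were 4.68 ± 0.25 for Olfr681 and 4.67 ± 0.51 for Olfr672 (limma adjusted p = 4.72e-09 and 7.80e-06 on 14 arrays). Olfr632 lay at 9.27, 9.38, 9.73 and 9.62 in the 4 libraries titled GFP+ of odor-exposed mice, against 5.13, 5.07, 5.80 and 5.63 in those titled GFP-. The groups did not overlap, with a difference of 4.09 ± 0.37 (limma adjusted p = 1.36e-06 on 14 arrays and 0.0344 on 16). Of its 4 libraries titled GFP-, 2 lay below the median of the negative probe sets, 5.46, so this size too rests partly on background. The other 20 receptors that rose ran from 0.77 for Olfr609 to 3.91 for Olfr600, with Olfr686 at 3.25, Olfr586 at 2.68, Olfr553 at 2.56 and Olfr671 at 2.52 among them.

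Among the receptors that were lower in libraries titled GFP+, Olfr613 stood apart in size. Olfr613 lay at 5.12, 5.23, 4.83 and 5.32 in the 4 libraries titled GFP+ of odor-exposed mice, against 10.51, 10.93, 9.88 and 10.23 in those titled GFP-. The groups did not overlap, and the difference was -5.26 ± 0.22 (limma adjusted p = 3.42e-10 on 14 arrays and 0.0332 on 16). All 4 libraries titled GFP+ lay below the median of the negative probe sets, so this size too rests on a level not above background. In vehicle mice it lay at 5.11, 4.55, 10.42 and 4.95 in the libraries titled GFP+ and at 11.10, 10.53, 4.54 and 10.81 in those titled GFP-. Again pool 3 alone had the fractions the other way round. Olfr593 lay at 8.52, 8.07, 7.14 and 8.58 in the 4 libraries titled GFP+ of odor-exposed mice, against 11.16, 11.52, 11.08 and 11.23 in those titled GFP-. Olfr556 lay at 6.66, 6.75, 7.00 and 7.12 in the 4 libraries titled GFP+ of odor-exposed mice, against 9.48, 9.77, 9.57 and 9.87 in those titled GFP-. Both were separated by gaps wider than the spread within a group, by -3.17 ± 0.28 for Olfr593 and -2.79 ± 0.22 for Olfr556 (limma adjusted p = 7.98e-07 and 2.55e-07 on 14 arrays).

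Olfr550, Olfr651 and Olfr571 followed, with larger limma standard errors than Olfr593 and Olfr556. Olfr550 lay at 9.0, 9.81, 9.24 and 8.36 in the 4 libraries titled GFP+ of odor-exposed mice, against 12.16, 11.02, 10.69 and 12.31 in those titled GFP-. Olfr651 lay at 6.19, 7.99, 5.86 and 6.52 in the 4 libraries titled GFP+ of odor-exposed mice, against 8.62, 9.74, 8.83 and 9.04 in those titled GFP-. Olfr571 lay at 7.69, 7.57, 7.12 and 8.12 in the 4 libraries titled GFP+ of odor-exposed mice, against 9.22, 10.35, 9.53 and 10.58 in those titled GFP-. None of these overlapped between the fractions of odor mice. Their differences were -2.44 ± 0.51, -2.42 ± 0.38 and -2.30 ± 0.31 in that order (limma adjusted p = 0.00348, 0.000334 and 7.93e-05 on 14 arrays). On 16 arrays Olfr571 passed, with an adjusted p of 0.029, and Olfr550 and Olfr651 did not, with 0.0773 and 0.0749. The other 25 receptors that fell ran from -2.25 for Olfr570 to -0.71 for Olfr591, with Olfr649 at -2.20, Olfr633 at -2.13 and Olfr557 at -2.04 among them.

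**Figure D2:**
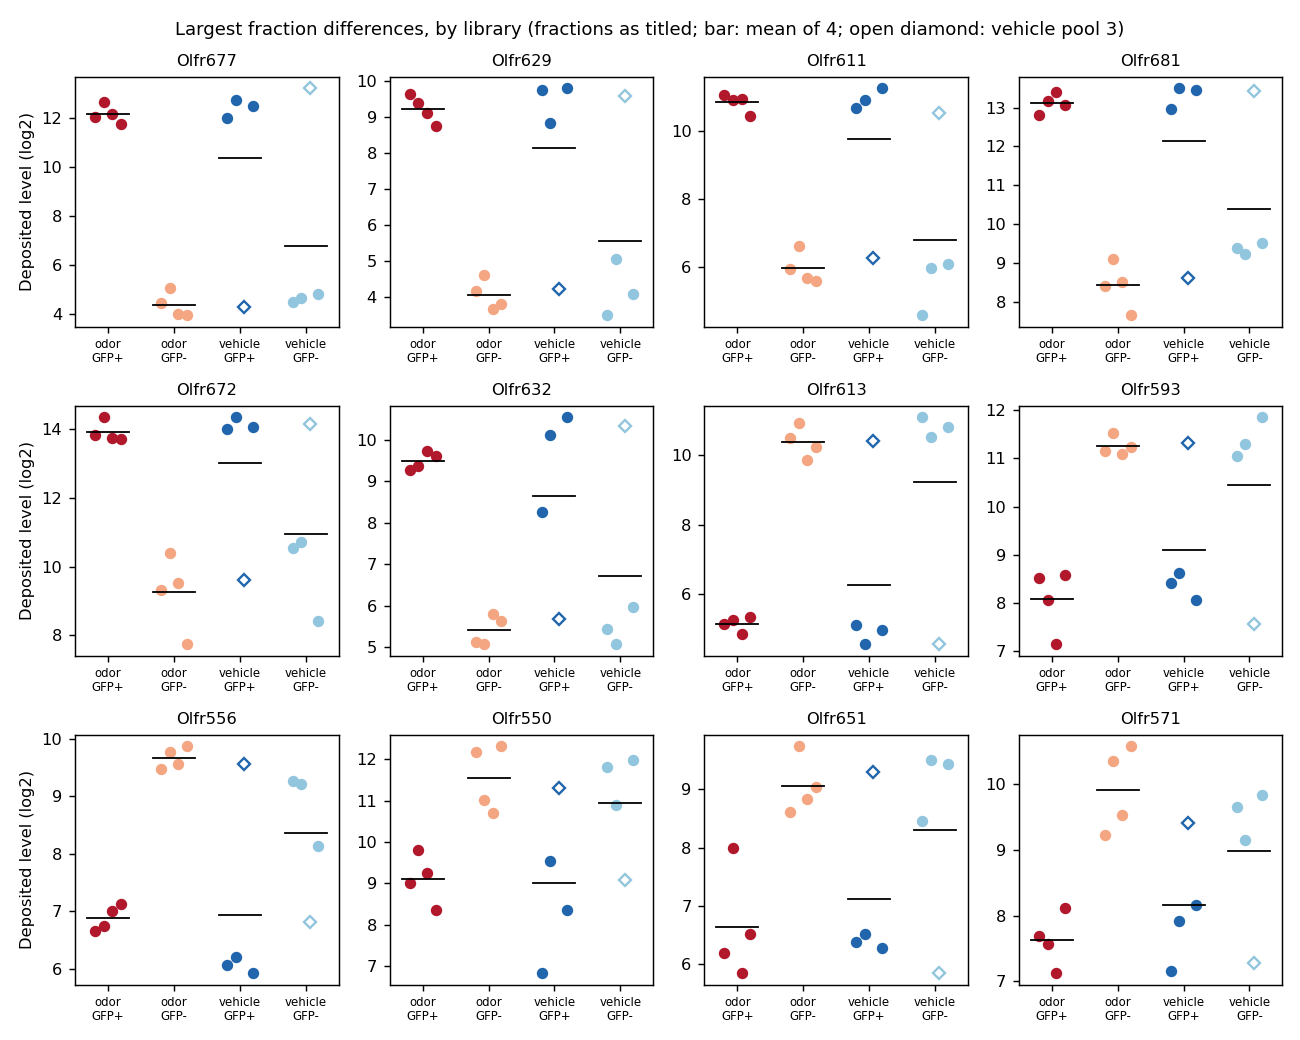
Deposited level (log2) in each of the 16 libraries for the 6 largest positive and 6 largest negative fraction differences; groups are, from left to right, odor titled GFP+, odor titled GFP-, vehicle titled GFP+ and vehicle titled GFP-, points are libraries, bars are means of 4 and open diamonds are vehicle pool 3. In each panel the open diamonds lie with the opposite fraction, as for Olfr677 at 4.27 titled GFP+ and 13.21 titled GFP-.

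Among the members, a higher mean over the 16 arrays went with more calls in odor mice. That mean includes the group in which a receptor was high. On 14 arrays 20 of the 31 members above the 95th percentile of the negative probe sets passed. Of the 62 between that and the median 34 passed, and of the 20 below the median 3. On 16 arrays 11, 17 and 2 passed. In vehicle mice on 14 arrays the counts were 14, 33 and 4, so the highest class did not have the largest share there. Odor differences over 2 were seen in 15 members and under -2 in 11, and over 4 in 6 members, against 1 under -4. Among the 967 other Olfr genes the same counts by size were 180, 160, 90 and 21. Neither the counts by level nor those by size were made over all genes, so they do not set the cluster apart. The 56 members that did not pass in odor mice on 14 arrays lay between -1.42 and 1.09. For these, the arrays did not show a difference, which is not evidence that the fractions are equal.

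In vehicle mice the cluster again held receptors in both directions, once pool 3 was left out. On 14 arrays 51 members passed, 18 higher and 33 lower in libraries titled GFP+, with 11.2% of all genes passing (7.86% higher, 3.32% lower). On 16 arrays 0 members passed by limma, with 0% of all genes. There 14 members (12.4%) had an unadjusted p under 0.05, as had 18.9% of other Olfr genes and 9.8% of all genes. With the pool as a block 55 passed on 14 arrays (16 higher, 39 lower, with 8.2% and 3.67% of all genes) and 0 on 16. Centring turned the split on 14 arrays to 16 higher and 53 lower (23.2% higher, against 35.3% as deposited). The median over the cluster was -0.33, against -0.24 over other Olfr genes and -0.10 over all genes.

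The odor and the vehicle libraries share no mice, so the fraction difference of each treatment is a separate measurement. Of the 113 members 42 passed in both treatments, 73.7% of the 57 in odor mice and 82.4% of the 51 in vehicle mice, and all 42 had the same sign, on 14 arrays. On 16 arrays 0 passed in vehicle mice, and no such overlap exists. Over the whole cluster 100 of 113 had the same sign on 14 arrays. The differences correlated there with a Pearson r of 0.97 and a Spearman rho of 0.93 across genes, which are not independent replicates. Vehicle pool 3 was left out because it ran opposite, so this agreement describes only the pools that were kept. Of other Olfr genes 500 passed in both treatments on 14 arrays, 84% of the 595 in odor mice and 95.4% of the 524 in vehicle mice. Both shares were larger than those of the cluster. The same sign was seen in 883 of the 967. This overlap was not counted over all genes. Olfr677 differed by 7.80 in odor and 7.79 in vehicle mice, Olfr629 by 5.16 and 5.24, Olfr613 by -5.26 and -5.94, and Olfr556 by -2.79 and -2.81. For Olfr677, Olfr629 and Olfr613 the lower group was not above the median of the negative probe sets, so these sizes depend on that background. Olfr556 lay above it in both groups. Of the 15 that passed in odor mice alone, Olfr596 (2.48 in odor, 1.33 in vehicle) and Olfr603 (2.00, 1.24) were the largest. Of the 9 that passed in vehicle mice alone, Olfr615 (-0.56 in odor, -2.45 in vehicle) and Olfr691 (-0.86, -1.61) were. A pass in 1 treatment alone is not a difference between treatments, and the test of that difference is given further down.

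For the 42 receptors that passed in both treatments, the sizes in odor and vehicle mice lay between 0.00 and 0.88 apart, with a median of 0.28. Values of 15 others follow. On the higher side Olfr600 differed by 3.91 in odor and 3.55 in vehicle mice, Olfr686 by 3.25 and 2.69, Olfr586 by 2.68 and 2.02, Olfr553 by 2.56 and 1.84, Olfr671 by 2.52 and 3.12, Olfr655 by 2.36 and 1.83, Olfr652 by 2.19 and 2.12, and Olfr684 by 1.99 and 1.24. On the lower side Olfr570 differed by -2.25 in odor and -2.01 in vehicle mice, Olfr649 by -2.20 and -2.33, Olfr633 by -2.13 and -2.93, Olfr689 by -1.98 and -1.73, Olfr618 by -1.93 and -2.03, Olfr693 by -1.84 and -1.96, and Olfr575 by -1.76 and -1.41. Each kept its direction between treatments. Of the 4 receptors with the highest signal, Olfr552 rose by 1.32 ± 0.27 in odor libraries titled GFP+ (limma adjusted p = 0.00265 on 14 arrays) and by 1.39 ± 0.31 in vehicle mice. Olfr596 rose by 2.48 ± 0.55 in odor mice (limma adjusted p = 0.00555), with 1 odor library titled GFP- at 8.26 far below its group. Olfr592 (-1.30 ± 0.45) and Olfr549 (0.61 ± 0.27) did not pass.

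**Figure D3:**
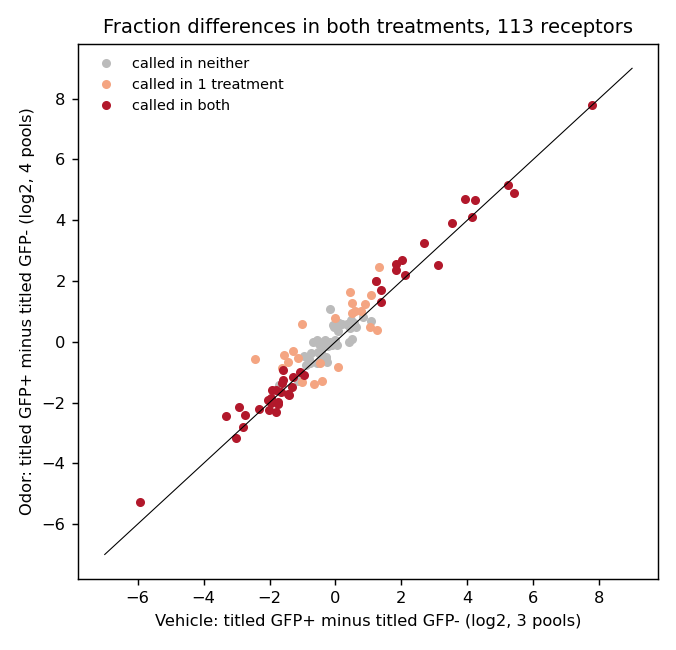
Fraction difference (log2, titled GFP+ minus titled GFP-) of the 113 receptors in odor mice (vertical, 4 pools) and vehicle mice (horizontal, 3 pools, without pool 3); points are receptors, colours show the limma calls on 14 arrays and the line marks equal values. The 42 receptors called in both treatments lie along the line, from -5.26 and -5.94 for Olfr613 to 7.80 and 7.79 for Olfr677.

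Seen pool by pool, 7 of the 8 pools gave the same picture. Of the 26 receptors that were higher in odor libraries titled GFP+, 22, 26 and 23 were also higher in vehicle pools 1, 2 and 4, and 1 was in pool 3. Of the 31 that were lower, 30, 29 and 31 were also lower in vehicle pools 1, 2 and 4, and 0 were in pool 3. The median difference of the 26 was 2.23, 1.93, 2.19 and 2.59 in the odor pools, and 1.37, 1.94 and 2.20 in vehicle pools 1, 2 and 4, but -1.45 in pool 3. Across the members each vehicle pool's differences correlated with the odor mean at r = 0.92, 0.93 and 0.94 for pools 1, 2 and 4, and -0.93 for pool 3. These receptors were chosen by their difference in odor mice, so the odor counts are a description. The vehicle differences did not enter that choice, but the vehicle libraries without pool 3 did enter the estimate of spread behind the calls.

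**Figure D4:**
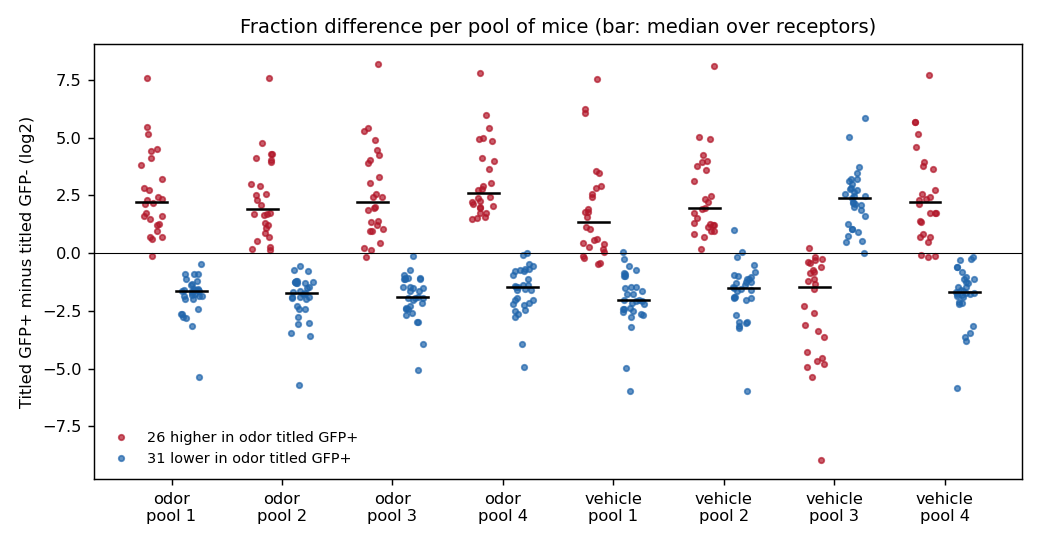
Fraction difference (log2, titled GFP+ minus titled GFP-) in each pool of 3 mice, for the 26 receptors higher (red) and the 31 lower (blue) in odor libraries titled GFP+; points are receptors and bars are medians over receptors. The odor pools and vehicle pools 1, 2 and 4 have positive red medians, while vehicle pool 3 lies at -1.45 for red and 2.37 for blue.

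Odor against vehicle was then compared within each fraction, which asks whether the mixture changed the level of any class I receptor in the sorted cells. In libraries titled GFP+ 0 members passed (limma), with 0% of all genes passing on 16 arrays and 0.0359% on 14. At an unadjusted p under 0.05 there were 7 members on either set of arrays, 6.19%, against 4.66% of all genes on 16 arrays and 7.78% on 14. In libraries titled GFP- 0 members passed, with 0.0103% and 0.0256% of all genes, and 15 and 16 members had an unadjusted p under 0.05, 13.3% and 14.2%, against 6.36% and 7.55% of all genes. None of the alternatives listed in the closing section gave a call in either fraction. The receptors with the smallest p in each comparison are given next, as values and not as changes.

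In libraries titled GFP+, the smallest p on 16 arrays belonged to Olfr559 and Olfr557. Olfr559 had 6.39, 6.25, 7.26 and 7.10 with odor and 7.20, 7.98, 8.56 and 7.58 with vehicle, a difference of -1.08 ± 0.29 (limma adjusted p = 0.877). Olfr557 had 5.14, 5.87, 4.53 and 5.43 with odor and 4.97, 7.16, 7.91 and 6.39 with vehicle, a difference of -1.36 ± 0.50 (limma adjusted p = 1). On 14 arrays the smallest belonged to Olfr558 and Olfr556, neighbours of these 2 in gene order. Olfr558, a receptor for short-chain carboxylic acids that blood vessels also express and that corresponds to human OR51E1, had 6.21, 6.41, 6.31 and 6.40 with odor and 5.06, 5.22, 5.89 and 6.15 with vehicle. Its odor libraries were all above the vehicle ones, by 0.85 ± 0.24 without pool 3 (limma adjusted p = 0.351). Olfr556 had 6.66, 6.75, 7.00 and 7.12 with odor and 6.06, 6.20, 9.56 and 5.92 with vehicle, and its difference was 0.82 ± 0.24 on 14 arrays (limma adjusted p = 0.351) but -0.06 on 16.

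In libraries titled GFP-, Olfr554 and Olfr678 had the smallest p on 16 arrays. Olfr554 had 6.63, 7.25, 7.89 and 6.81 with odor and 7.70, 8.12, 8.03 and 7.87 with vehicle, a difference of -0.79 ± 0.23 (limma adjusted p = 0.574), and the groups overlapped. Olfr678 had 5.22, 6.13, 7.05 and 5.96 with odor and 7.41, 8.62, 7.92 and 6.16 with vehicle, a difference of -1.44 ± 0.46 (limma adjusted p = 0.636). On 14 arrays Olfr681 and Olfr556 were first. Olfr681 had 8.41, 9.12, 8.53 and 7.66 with odor and 9.39, 9.23 and 9.51 with vehicle pools 1, 2 and 4, a difference of -0.94 ± 0.27 (limma adjusted p = 0.351). Olfr556 had 9.48, 9.77, 9.57 and 9.87 and 9.27, 9.21 and 8.14, a difference of 0.80 ± 0.24 (limma adjusted p = 0.375). For these 2 receptors the groups did not overlap without pool 3, and they lay in opposite directions.

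More members were lower than higher with odor in both fractions, without any passing. In libraries titled GFP+ on 14 arrays this turned on single libraries. In libraries titled GFP- 86 of 113 were lower than in vehicle libraries on 14 arrays, with a median of -0.27, against 0.04 over other Olfr genes and -0.01 over all genes. On 16 arrays 72 were lower, with a median of -0.23. Leaving out 1 library at a time on 14 arrays moved the median between -0.19 and -0.31 and the count between 76 and 88. Without vehicle titled GFP- replicate 4 the median was -0.22, and that of other Olfr genes was -0.08. Without overlap between the groups, 10 members were lower and 2 higher on 14 arrays, where 3.83% and 4.27% of all genes were, but 2 were lower and 2 higher on 16 arrays, where 1.89% and 2.28% of all genes were. Members of 1 sample share its library, so the count of 86 carries no test, and 0 of the 86 passed on its own. Libraries titled GFP+ had a median of -0.04 with 64 members lower on 14 arrays. Leaving out 1 library there moved the median between -0.24 and 0.09 and the count between 80 and 45. On 16 arrays the median was -0.15 with 76 lower, against -0.04 over other Olfr genes and -0.01 over all genes. The 117 other Olfr genes of chromosome 7 had a median of -0.21 with 78 lower there. In libraries titled GFP- on 16 arrays those 117 had a median of 0.11 with 46 lower. Whether the lean differed between the fractions was not tested. In a mixture of cells, fewer neurons that chose a receptor and less of its RNA per neuron cannot be told apart.

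Whether odor changed the difference between fractions was tested directly. The test found 0 members on either set of arrays (limma), with 0.00513% of all genes passing on 16 arrays and 0.0103% on 14. At an unadjusted p under 0.05 there were 9 members (7.96%) on 16 arrays and 7 (6.19%) on 14. The shares were 7.34% and 4.55% of other Olfr genes, and 2.98% and 2.68% of all genes. Olfr558 had the smallest p on both sets. On 14 arrays its fraction difference was 0.57 in odor and -1.02 in vehicle mice, apart by 1.59 ± 0.34, with an unadjusted limma p of 0.000337 and an adjusted p of 1.00. Its libraries titled GFP- lay at 5.21, 6.12, 5.83 and 5.87 with odor, against 6.54, 6.52, 5.24 and 6.43 with vehicle. Every odor library titled GFP- was thus below vehicle libraries 1, 2 and 4, and above vehicle library 3 with 1 exception. The size on 14 arrays stayed between 1.29 and 1.93 over the alternatives, and the adjusted p between 0.0610 and 1.00, lowest without vehicle titled GFP+ replicate 4. Olfr609 was the other receptor on 16 arrays (0.88 ± 0.32) and Olfr615 on 14 (1.89 ± 0.58), each with an adjusted p of 1.00. Olfr558 lay near the median of the negative probe sets, where signals are hard to read.

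**Figure D5:**
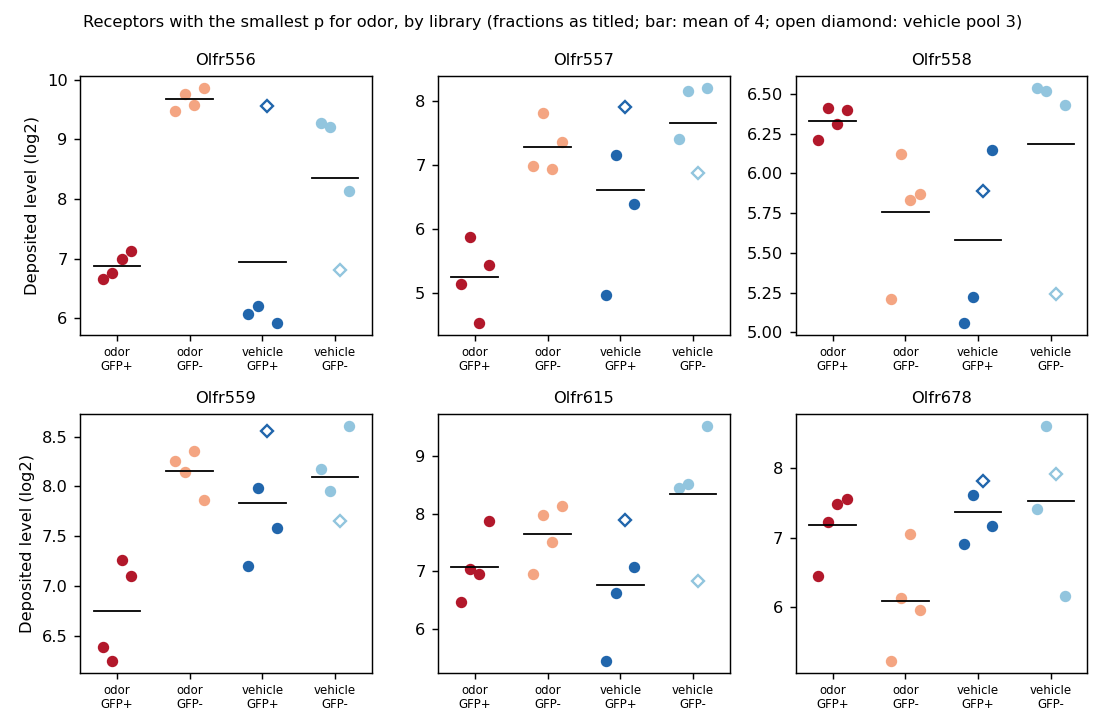
Deposited level (log2) in each of the 16 libraries for 6 receptors with small p in the comparisons of odor with vehicle; groups are, from left to right, odor titled GFP+, odor titled GFP-, vehicle titled GFP+ and vehicle titled GFP-, points are libraries, bars are means of 4 and open diamonds are vehicle pool 3. Olfr558 has its 4 odor libraries titled GFP+ between 6.21 and 6.41, above the 4 vehicle libraries titled GFP+ at 5.06 to 6.15, and no receptor shown passed the adjusted threshold.

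Members with a known ligand gave a mixed picture. Olfr544, a receptor for azelaic acid, had 7.80, 8.40, 8.78 and 9.47 in odor titled GFP+ and 8.39, 9.34, 8.96 and 8.34 in odor titled GFP-, and its difference of -0.14 ± 0.33 did not pass (limma adjusted p = 0.848 on 14 arrays). Its neighbour Olfr545 was higher in libraries titled GFP+ by 0.94 ± 0.24 (limma adjusted p = 0.0149 on 14 arrays and 0.0498 on 16). Olfr690 was higher by 1.64 ± 0.37 (limma adjusted p = 0.00569 on 14 arrays), and Olfr691, which responds to aliphatic carboxylic acids, had a difference of -0.86 ± 0.39 that did not pass in odor mice (limma adjusted p = 0.191). In vehicle mice Olfr691 was lower by -1.61 ± 0.45 (limma adjusted p = 0.0284 on 14 arrays). Between odor and vehicle none of the 5 differed past the threshold. Neighbouring genes in this set, Olfr544 with Olfr545 and Olfr690 with Olfr691, had unlike values, a contrast that was not itself tested.

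Neighbours in the cluster often differed in direction. Of 112 pairs of adjacent members 58 had the same sign of the odor difference, and of the 28 pairs in which both passed on 14 arrays 14 had the same direction. The differences of neighbours correlated at r = 0.03 and their levels at -0.00, across genes. Reading along the cluster and skipping members that did not pass, the longest run of 1 direction was 8 lower receptors from Olfr556 to Olfr577, and the next was 6 higher receptors from Olfr594 to Olfr603. Between the start and Usp17ld lay 38 members, 6 higher and 11 lower on 14 arrays. Between Usp17ld and Hbb-bt lay 27, 9 higher and 8 lower. Between Hbb-bt and Trim6 lay 13, 1 higher and 4 lower, and between Trim6 and Cnga4 lay 34, 10 higher and 7 lower. Olfr693, beyond Cnga4, was lower.

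The beta-globin genes sit within this cluster, and the receptors around them show how abruptly the fraction changed from gene to gene. In gene order Olfr629 differed by 5.16, Olfr630 by -0.53, Olfr69 by 6.31, Olfr68 by 5.61 and Olfr67 by -0.89. After the globin genes came Olfr66 with -1.18, Olfr64 with -0.07, Olfr65 with 0.87, Olfr631 with -0.15, Olfr632 with 4.09 and Olfr633 with -2.13. Olfr64 to Olfr69 belong to the same cluster by position and were outside the numbers counted here. Of these 6, 2 were higher and 2 lower on 14 arrays, and 2 and 0 on 16. Embryonic globin genes Hbb-bh1, Hbb-bh2 and Hbb-y did not pass, at -0.56, -0.11 and -0.18.

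Non-receptor genes within or beside the cluster were counted as well, 29 of them measured. On 14 arrays 5 were higher in odor libraries titled GFP+ and 1 was lower, where 8.59% and 4.59% of all genes were. On 16 arrays 1 was higher, where 4.57% of all genes were. The higher ones were Trim30a (1.66), Trim12a (1.27), Rhog (1.23), Trim12c (1.02) and Trim30b (0.99). The Trim genes encode tripartite motif proteins, several of them active in immune cells, and Rhog encodes a small GTPase. The lower one was Gm5901 (-1.57). Marker genes of neutrophils and other myeloid cells were higher in the same libraries, 11 of 11, with a median of 7.84, and their mean level over genes ran from 10.76 to 13.75 in odor titled GFP+ and from 4.77 to 6.29 in odor titled GFP-. The part of those cells in the receptor differences was not tested.

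Other cell types also separated the fractions in odor mice on 14 arrays. Microvillar and ionocyte-like markers were higher in libraries titled GFP+, 9 of 9, with mean levels of 7.08 to 8.21, against 4.43 to 4.78 in those titled GFP-. Globose basal and progenitor markers were higher, 7 of 7, as were 7 of 10 sustentacular, 7 of 8 lymphoid and 6 of 12 immature neuron markers. Also higher were 3 of 6 Bowman gland, 3 of 6 guanylyl cyclase D neuron and 1 of 2 red blood cell markers. Ltf stood in both the Bowman gland list and the myeloid list, and was counted as higher in both. On 16 arrays the microvillar count was again 9 and the guanylyl cyclase D count again 3, but 6 globose basal, 3 sustentacular, 4 lymphoid, 2 Bowman gland and 0 red blood cell markers were higher (the last with 1 at an unadjusted p under 0.05), and immature neuron markers were 5 higher and 1 lower. Ensheathing glia (5 measured), horizontal basal (6) and endothelial markers (6) gave 0 calls by limma, with 2, 0 and 1 at an unadjusted p under 0.05. Mature neuron markers were lower for 3 of 14 (2 on 16 arrays), with mean levels of 15.62 to 15.75 in odor titled GFP+ and 15.85 to 15.99 in odor titled GFP-. The part of these cells in the receptor values was not tested. Genes of the dorsal and ventral zones of the epithelium, among them the dorsal marker Nqo1 (0.05), passed in 0 of 6 cases by limma on either set of arrays, with 2 at an unadjusted p under 0.05 on 14 arrays and 1 on 16. Of 22 genes of receptor expression and signalling, Ano2, a chloride channel of the cilia, was lower (-0.51, limma adjusted p = 0.00869 on 14 arrays), and the rest did not pass.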

How the data were processed

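Gene expression was measured on 16 Affymetrix arrays of sorted olfactory mucosa cells. The authors deposited 1 table of log2 values, which the submitters' processing notes credit to Affymetrix Expression Console; how probes were summarized, the version and the genome build are not stated there. Values ran from 1.69 to 19.4, above the limit of 16 for a 16-bit scanner, so the scale may be stretched. Of 28846 probe sets, 19572 had 1 gene symbol, and the probe set with the highest mean was kept for each of 19505 genes. Arrays have no read depth, and their number limits the precision.

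The test was limma's (version 3.58.1, R 4.3.3), two-sided, with lmFit and eBayes on 4 group means and no block. P-values were adjusted over all 19505 genes (Benjamini-Hochberg) at a threshold of 0.05, on 16 arrays and on the 14 without vehicle pool 3. Errors are limma standard errors. The script was tested on simulated data. The 2 libraries of a pool come from the same mice per the labels, so the pool as a block was an alternative. Deviations of pool mates from their group means on 16 arrays correlated at 0.13 to 0.25 in odor pools and at -0.06 to -0.75 in vehicle pools. The vehicle means include pool 3 (-0.75), which ran opposite, so the vehicle values cannot show how pool mates vary together. Other alternatives were median centring, quantile normalization, a filter on dim genes, an intensity trend, array weights, the lowest probe set, fits of only the groups compared, and leaving out each library.

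The members and gene lists were chosen with earlier results of these data known. Named are the 6 largest differences in each direction whose odor groups do not overlap, the 2 smallest p where 0 passed, the 4 highest and lowest levels and members of known ligand; pairs by protein identity were not used here. Promoter sequences are RefSeq's.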

Additional observations from a re-analysis of the deposited data

Results flagged for a closer look

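Of 132 sets of 4 libraries examined (members named in the report, S100a5 and Omp, in each of the 4 groups), 18 held 1 library far from the other 3 by Dixon's criterion, where chance gives about 1 in 20. Vehicle replicate 3 was that library in 14 of the 18. In vehicle titled GFP+ it lay at 4.27 for Olfr677, 6.25 for Olfr611, 8.61 for Olfr681, 9.60 for Olfr672, 10.42 for Olfr613, 9.56 for Olfr556 and 9.30 for Olfr651. In vehicle titled GFP- it lay at 13.21 for Olfr677, 13.43 for Olfr681, 10.33 for Olfr632, 4.54 for Olfr613, 5.24 for Olfr558, 7.25 for Olfr691 and 14.99 for S100a5. In each case the other 3 libraries of the group lay close together.

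The other 4 did not involve that pool. Olfr596 was at 8.26 in odor titled GFP- replicate 4, below the other 3. Olfr552 was at 12.90 in odor titled GFP- replicate 3, Olfr549 at 13.14 in odor titled GFP+ replicate 4 and Olfr544 at 9.15 in vehicle titled GFP- replicate 2, each above the other 3 of its group.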

How the results depend on the processing

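The fraction difference of odor mice gave 30 members on 16 arrays, and this count depended on the fit. It was 54 with array medians centred, 52 with array weights, 53 with only the groups compared and 0 with the pool as a fixed replicate block. Leaving out 1 library gave 0 to 47 members, 0 or 1 without any of 7 odor libraries (all but titled GFP+ replicate 4) and 47 without vehicle titled GFP+ replicate 3. On 14 arrays the count of 57 stayed between 53 and 71 over the other alternatives, 56 with the replicate block, and between 49 and 57 when 1 library was left out. For vehicle mice the count of 0 on 16 arrays became 27 with array weights and 0 to 11 when 1 library was left out, 11 without vehicle titled GFP+ replicate 3; the count of 51 on 14 arrays stayed between 47 and 69, 55 with the replicate block, and between 40 and 53 when 1 library was left out. Counts for odor against vehicle and for the change of the fraction difference were 0 under every alternative run. The difference of Olfr556 between odor and vehicle in titled GFP+ on 16 arrays, -0.06 as reported, turned to 0.52 with array weights; leaving out 1 library gave -0.39 to 0.82, with 0.02 without odor titled GFP+ replicate 1 and 0.82 without vehicle titled GFP+ replicate 3. The cause was not tested. No array gives a clean background, so low receptors such as Olfr564 have values that limit what can be read.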
